A study of Mus musculus with 24 samples.

Results

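The genes described here carry folate-bound carbon units, methyl groups, serine, sulfur amino acids and polyamines in N1E-115, a mouse neuroblastoma line that the study uses as a model of neurons. The set was a list of 41 genes taken by name: 40 of them had a probe on the array, out of 27597 gene names, and 38 were tested. The probe with the highest mean signal stood for a gene. No probe was found for Amt, a subunit of the glycine cleavage system, in the tables used here. Aldh1l1, a cytosolic formyl-folate dehydrogenase, was well above background in 1 of 24 samples, and Bhmt, which remethylates homocysteine from betaine, in 6 of 24. Neither was tested.

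The study, on disorders of cobalamin metabolism, compared 3 lines in 2 media on 12 Agilent arrays with 2 samples each. TO cells express an N-terminal fusion of transcobalamin, the blood carrier of cobalamin, with oleosin, a protein that anchors in membranes; per the design text this fusion binds cobalamin strongly. OT cells express the C-terminal fusion, for which no cobalamin binding was detected. WT cells are the line without transfection, and no empty-vector or other chimeric control is among the samples. Differentiation medium (d) held 2.5% serum and 1.25% DMSO, and proliferation medium (p) held 10% serum, so serum and DMSO changed together. The 6 groups, TO-d, OT-d, WT-d, TO-p, OT-p and WT-p, had 4 samples each, 2 in Cy5 and 2 in Cy3. The arrays lay on 3 slides, over which the groups were spread unevenly. WT-d had 3 of its 4 samples on slide 1, where OT-d had no sample. OT-d and WT-d thus shared slide 3 alone, with 2 samples against 1, and TO-d and OT-d shared slides 2 and 3. The labels do not give the promoter of the fusions, or whether TO and OT are each 1 clone, so a difference between lines cannot be told apart from a difference between clones.

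Folate carries carbon units taken mainly from serine, which cells can make from the glycolytic intermediate phosphoglycerate through Phgdh, Psat1 and Psph. Mitochondrial enzymes (Shmt2, Mthfd2, Mthfd1l) turn serine into formate, and the cytosol uses it for purines, for thymidylate and for methionine. Methionine synthase needs cobalamin as its cofactor, and links folate to S-adenosylmethionine, the methyl donor; decarboxylated S-adenosylmethionine also feeds the polyamines spermidine and spermine, while homocysteine can leave the cycle through Cbs and Cth towards cysteine. Dividing cells use the nucleotide branches most.

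Levels are normalized log2 intensities, given by sample or as group means, and a change of 1 on this scale is 2-fold. Mat2a (OT-p, WT-p), Fpgs (OT-d, WT-d) and Amd1 (TO-p, WT-p) had 3 values in the groups named. Differences are fitted with limma over all 16241 genes tested, and a gene is said to have risen or fallen where its Benjamini-Hochberg adjusted p was under 0.05. Median raw signals per sample lay between 65 and 163.5, and 54.3 to 65.9% of spots were well above background. The number of arrays limits the precision. All 13 sympathoadrenal neuroblast markers were well above background in all 24 samples, whereas markers of other cell types were mixed. Of 6 blood and endothelial markers, Ptprc and Cdh5 were above it in 0 of 24, Kdr in 4, Cd68 and Pecam1 in 6 each and Csf1r in 15. Of 6 fibroblast markers, Postn was above it in 0 of 24, Lum in 1, Col3a1 in 5, Dcn in 8, Pdgfra in 15 and Col1a1 in all 24. Sox10 and S100b, often used as glial markers, were above it in all 24, Gfap in 5, and Fabp7 and Aqp4 in 2 each. The design text calls the samples biological replicates, but nothing says that they came from separate cultures. In each group 2 of the 4 samples carry the same number in their description. The fits count these as separate samples, and p-values therefore measure the spread between the samples as listed. In whole cultures, fewer cells of a type and less RNA per cell cannot be told apart.

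In differentiation medium, TO cells had higher levels of serine synthesis genes, and of a part of the folate genes, than OT cells. All 3 serine synthesis genes rose (Phgdh, Psat1, Psph), as did Mthfd1, Shmt1 and Mthfs of the cytosolic folate branch and Mthfd2, Mthfd1l and Aldh1l2 of the 5 genes of the mitochondrial branch. Shmt2 of that branch was not called (0.14, adjusted p = 0.125); Mtfmt fell by 0.21 and Gldc of glycine cleavage by 0.24, calls lost without TO-d replicate 1 (adjusted p = 0.0554 for Mtfmt and 0.162 for Gldc) among others. Relative to OT-d, 18 of the 38 genes rose in TO-d and 7 fell, where 40.1% of all genes tested were called, 18.7% higher and 21.3% lower. The median difference of the set was 0.19, against -0.02 over all genes. In 26 genes (68.4%, against 41.7% of all genes) all TO-d samples lay beyond all OT-d samples. Of the set, 6 genes passed the test with at least 2-fold, each of them up in TO-d, where 3.18% of all genes passed at that size.

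Phgdh, the first enzyme of serine synthesis (probe at chr3:98398580-98398639, mm8), had 14.97, 15.13, 15.34 and 15.03 in TO-d and 13.59, 13.68, 13.70 and 13.69 in OT-d. Its WT-d samples, at 14.23, 14.58, 14.40 and 14.08, lay between these groups. The difference between TO-d and OT-d was 1.50 (SE 0.0963, 2.83-fold, adjusted p = 2.97e-11), and the other 2 probes of the gene gave 1.41 and 1.46. Psat1, the transaminase that follows (chr19:15972499-15972558), kept the same order: 12.52, 12.63, 12.58 and 12.62 in TO-d, 11.68, 11.64, 11.64 and 11.48 in OT-d, and 11.87, 12.19, 11.84 and 11.72 in WT-d. TO-d was 2.00-fold above OT-d (adjusted p = 1.44e-09). Psph, which removes the phosphate from phosphoserine, rose 1.59-fold in TO-d (adjusted p = 0.000139), with 12.47, 12.66, 12.29 and 12.11 in TO-d against 11.98, 11.91, 11.62 and 11.63 in OT-d.

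The largest difference of the set in this medium was that of Aldh1l2 (chr10:82917625-82917684), the mitochondrial enzyme that oxidises formyl-folate. It had 10.45, 10.50, 10.69 and 10.59 in TO-d, 8.72, 8.48, 8.55 and 8.72 in OT-d, and 9.39, 9.51, 9.59 and 9.62 in WT-d. The 3 groups did not overlap, and TO-d was 3.81-fold above OT-d (SE 0.082 on the log2 scale, adjusted p = 2.17e-14). A dimmer probe of Aldh1l2 gave 1.38 for TO-d over OT-d but -0.09 for TO-d over WT-d, so the probes disagree on the distance to WT. Mthfd2 (chr6:83272182-83272241), the mitochondrial dehydrogenase and cyclohydrolase that is high in embryonic and tumour cells, had 11.50, 11.62, 11.37 and 11.57 in TO-d, 10.28, 10.47, 10.32 and 10.42 in OT-d, and 10.65, 10.85, 10.53 and 10.61 in WT-d. Mthfd1 (chr12:77236475-77236534), its cytosolic counterpart with a formate-activating activity, had 11.61, 11.66, 11.77 and 11.70 in TO-d, 10.43, 10.57, 10.41 and 10.74 in OT-d, and 10.60, 10.51, 10.63 and 10.88 in WT-d. Both were 2.25-fold above OT-d (adjusted p = 2.92e-09 for Mthfd2 and 2.66e-09 for Mthfd1). For Mthfd1 the OT-d and WT-d samples overlapped and TO-d alone stood apart. Mthfd1l, the mitochondrial formate-releasing enzyme, was 1.95-fold above its OT-d level in TO-d (adjusted p = 5.28e-09).

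Cth (chr3:157829996-157830055), which splits cystathionine to cysteine, had 10.03, 9.99, 9.93 and 10.00 in TO-d, 9.15, 9.14, 8.83 and 9.00 in OT-d, and 9.45, 9.99, 9.67 and 9.54 in WT-d. It rose by 1.00 over OT-d (adjusted p = 2.93e-08), and TO-d overlapped WT-d. Nnmt (chr9:48343977-48344036), which methylates nicotinamide with S-adenosylmethionine, had 9.72, 9.66, 9.53 and 9.61 in TO-d and 8.39, 8.73, 9.01 and 8.56 in OT-d, a rise of 0.99 (adjusted p = 1.29e-06). The largest falls were smaller than these rises: Gamt, the last step of creatine synthesis, fell by 0.57 (adjusted p = 9.28e-07), Folr1, a folate receptor, by 0.43 and Paics, of purine synthesis, by 0.39. None of the 4 methionine cycle genes tested (Mat2a, Mat2b, Ahcy, Ahcyl1) was called between TO-d and OT-d. Without TO-d replicate 4 the Mthfs difference of 0.29 was no longer called (0.26, adjusted p = 0.0808), nor without OT-d replicate 1 (0.24, adjusted p = 0.0617). With loess alone as normalization the set gave 18 higher and 1 lower in place of 18 and 7, where all genes gave 3429 higher and 1709 lower in place of 3040 and 3466.

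**Figure D1:**
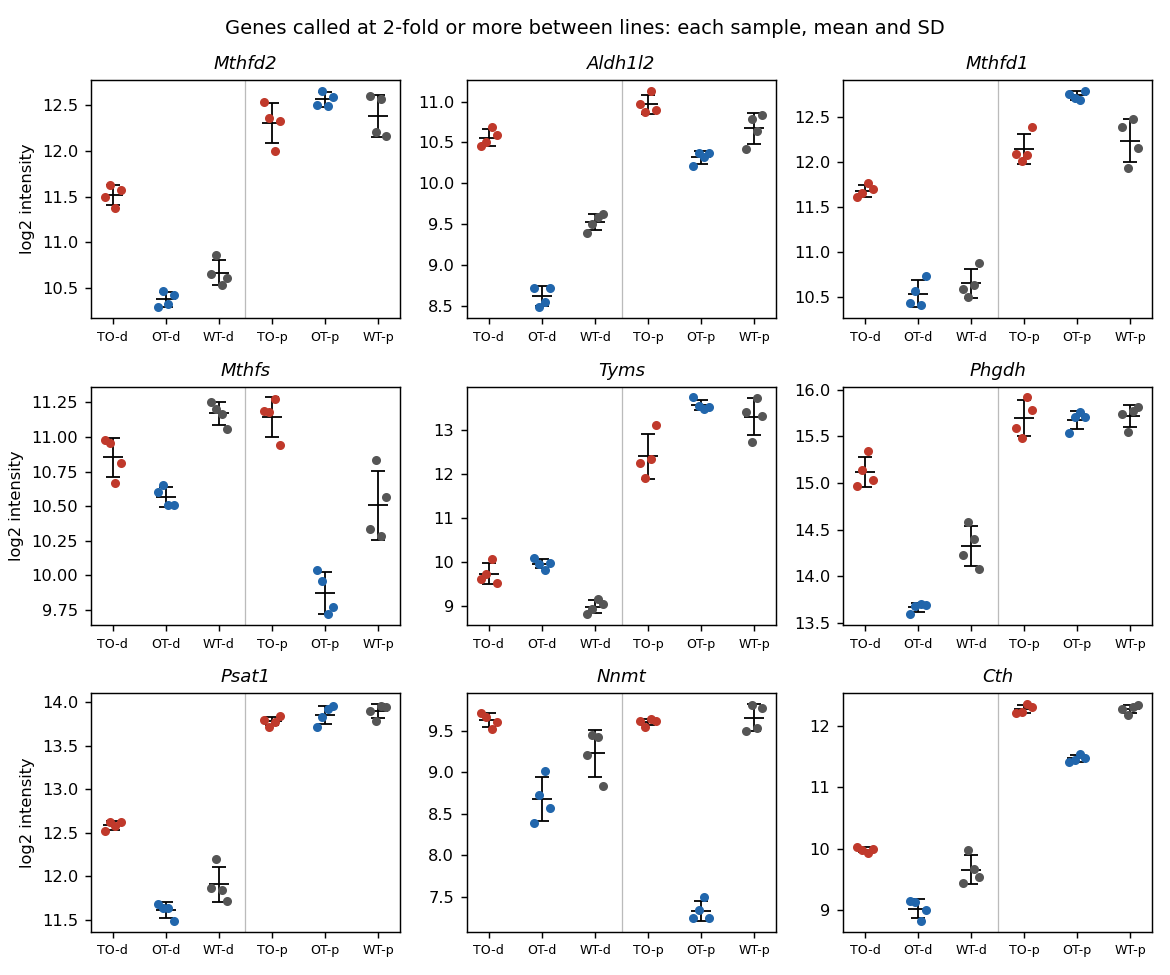
Log2 intensity (y axis) of the 9 genes that differed at least 2-fold between lines in some medium, with a point for each sample, a bar for each group mean and whiskers for the SD (n = 4); groups run TO-d, OT-d, WT-d, TO-p, OT-p and WT-p. Phgdh, Psat1, Aldh1l2 and Mthfd2 have TO-d above WT-d and OT-d below it, while Nnmt and Mthfs are lowest in OT-p.

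RefSeq promoter windows (GRCm38.p6, from 250 bases before to 50 after the gene start) were available for 34 of the 41 genes. They were searched on both strands for TGATGNAA, a composite element bound by C/EBP and ATF proteins, and for CACGTG, the E-box of Myc-type factors, neither of which overlapped the other. TGATGNAA was in the window of 0 of the 34 genes, against 4.51% of the 27025 genes with windows, and CACGTG in 5 of 34 (14.7%, against 8.09%): Atic, Cbs, Paics, Sms and Tyms. Aldh1l2, Cth, Nnmt, Srm, Ggh, Folr1 and Slc25a32 had no window and were not searched. The matches are of letters in a short window and no test was made. The windows of Phgdh, Mthfd2 and Mthfd1 are shown because these genes rose together in TO-d, and that of Tyms because it fell in TO-p and holds the E-box (capitals). Phgdh is at chr3:98339920-98340219, Mthfd2 at chr6:83317555-83317854 and Tyms at chr5:30073576-30073875, all 3 on the minus strand, and Mthfd1 is at chr12:76254982-76255281 on the plus strand; each is written 5′ to 3′ along its gene.
Phgdh: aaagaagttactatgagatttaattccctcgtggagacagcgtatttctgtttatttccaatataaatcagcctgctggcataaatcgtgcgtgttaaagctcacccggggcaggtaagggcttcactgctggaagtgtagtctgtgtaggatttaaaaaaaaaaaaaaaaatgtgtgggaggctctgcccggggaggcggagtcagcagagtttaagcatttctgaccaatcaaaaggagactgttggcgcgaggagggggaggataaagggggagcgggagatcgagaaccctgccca
Mthfd2: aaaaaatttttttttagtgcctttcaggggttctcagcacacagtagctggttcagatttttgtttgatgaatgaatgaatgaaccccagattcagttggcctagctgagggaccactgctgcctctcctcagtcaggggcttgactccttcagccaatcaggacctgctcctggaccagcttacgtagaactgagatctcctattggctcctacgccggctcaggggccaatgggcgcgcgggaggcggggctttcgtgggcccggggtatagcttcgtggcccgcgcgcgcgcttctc
Mthfd1: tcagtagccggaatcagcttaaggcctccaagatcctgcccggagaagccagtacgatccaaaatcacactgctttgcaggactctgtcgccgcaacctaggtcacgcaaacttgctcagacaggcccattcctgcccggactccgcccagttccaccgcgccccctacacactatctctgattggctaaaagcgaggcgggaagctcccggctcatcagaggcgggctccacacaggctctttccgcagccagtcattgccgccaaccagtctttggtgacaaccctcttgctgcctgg
Tyms: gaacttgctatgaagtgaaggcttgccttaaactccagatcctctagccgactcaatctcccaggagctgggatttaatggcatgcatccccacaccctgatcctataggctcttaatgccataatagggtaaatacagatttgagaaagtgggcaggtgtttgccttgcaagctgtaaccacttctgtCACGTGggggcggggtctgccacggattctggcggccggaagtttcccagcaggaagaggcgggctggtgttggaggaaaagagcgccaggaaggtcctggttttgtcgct

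Set against WT in differentiation medium, all 3 serine synthesis genes and all 5 mitochondrial genes were higher in TO cells, and the other folate and purine genes went both ways. In TO-d, 20 of the 38 genes rose and 8 fell, where 46.5% of all genes were called, 22.6% higher and 23.8% lower; the median of the set was 0.37, against -0.03 over all genes. In 28 of them (73.7%, against 40.7% of all genes) the groups did not overlap. Mthfd1 rose 2.04-fold (adjusted p = 8.53e-08) and Aldh1l2 1.96-fold (adjusted p = 1.11e-08); Mthfd1 was the 1 gene of the set past 2-fold, where 3.34% of all genes passed at that size. Further rises were those of Atic, the last purine step (0.86), Mthfd2 (0.84), Psph (0.78), Tyms, thymidylate synthase (0.78), Phgdh (0.77), Ggh, which trims folate polyglutamates (0.72), and Srm, spermidine synthase (0.70). The Psph samples overlapped, at 12.11 to 12.66 in TO-d and 11.04 to 12.22 in WT-d. The smallest mitochondrial rise, that of Mtfmt, which formylates the initiator tRNA (0.19), was no longer called without WT-d replicate 4 (0.15, adjusted p = 0.152), and 6 other samples left out singly also ended it. Folr1 fell by 0.62 (adjusted p = 3.35e-07) and Gnmt, a methyltransferase that uses up S-adenosylmethionine, by 0.54. Nnmt rose by 0.47, a call lost without WT-d replicate 4 (0.31, adjusted p = 0.0674). Of the other folate and purine genes, Paics fell by 0.37 (adjusted p = 0.0024), Slc25a32, the mitochondrial folate carrier, by 0.35 (adjusted p = 0.00937) and Mthfs by 0.29, a call lost without TO-d replicate 1 (-0.28, adjusted p = 0.0618). With loess alone the set gave 24 higher and 2 lower, where all genes gave 4589 higher and 1559 lower in place of 3674 and 3872.

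In proliferation medium the picture between TO and OT cells was another one. All 5 polyamine and methylthioadenosine genes and, of 4 thymidylate and purine genes, Tyms and Atic were lower in TO-p, while Gart, Paics and the 3 serine synthesis genes were not called. Relative to OT-p, 10 of the 38 genes rose in TO-p and 16 fell, where 56.2% of all genes were called, 30.2% higher and 26.0% lower; the set's median was -0.14, against 0.02 over all genes. Changes of at least 2-fold were 2 rises and 1 fall, where 7.17% of all genes passed at that size. With spots of non-uniform background kept, the set gave 6 higher and 17 lower.

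Odc1, which makes putrescine and is the rate-limiting step of the pathway, had 15.45, 15.55, 15.60 and 15.97 in TO-p, 16.56, 16.44, 16.36 and 16.35 in OT-p, and 16.33, 15.97, 16.00 and 16.25 in WT-p. Amd1, which decarboxylates S-adenosylmethionine for the pathway, had 12.90, 12.94 and 13.06 in the 3 TO-p samples kept, and 13.81, 13.75, 13.77 and 13.67 in OT-p. Neither gene had overlapping TO-p and OT-p samples: Odc1 fell by 0.82 (adjusted p = 6.09e-07) and Amd1 by 0.81 (adjusted p = 1.14e-07). Srm fell by 0.67, and Sms, spermine synthase, by 0.34. Mtap, which salvages methylthioadenosine, fell by 0.26, and was not called without TO-p replicate 3 (-0.21, adjusted p = 0.0801).

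Tyms (chr5:30391852-30391911), thymidylate synthase, had the largest fall of the set between TO-p and OT-p. It had 12.26, 11.91, 12.34 and 13.11 in TO-p, 13.73, 13.53, 13.48 and 13.51 in OT-p, and 13.41, 12.72, 13.73 and 13.32 in WT-p. TO-p was 2.39-fold below OT-p (-1.26, SE 0.171, adjusted p = 1.46e-06), with no overlap, and its other tested probe gave -1.32. Both glycine cleavage genes tested were also lower in TO-p, Gcsh by 0.76 and Gldc by 0.50, as were Shmt1 (-0.70), Mthfd1 (-0.59), Slc25a32, the mitochondrial folate carrier (-0.57), and Atic (-0.55). Shmt1 and Mthfd1 thus lay below OT in proliferation medium and above it in differentiation medium; a dimmer probe of Shmt1 gave -0.03 in differentiation medium.

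Among the genes that rose in TO-p relative to OT-p, Nnmt had the largest change. It had 9.61, 9.55, 9.64 and 9.62 in TO-p, 7.24, 7.34, 7.50 and 7.24 in OT-p, and 9.50, 9.82, 9.54 and 9.78 in WT-p. OT-p alone was low: TO-p was 4.82-fold above OT-p (adjusted p = 4.45e-13). Mthfs (chr9:89037919-89037978), which returns formyl-folate to the active pool, had 11.19, 11.18, 11.27 and 10.94 in TO-p, 10.04, 9.96, 9.72 and 9.77 in OT-p, and 10.34, 10.83, 10.29 and 10.57 in WT-p. Here the 3 lines formed 3 levels, and TO-p was 2.44-fold above OT-p (adjusted p = 3.93e-11). Smaller rises were those of Cth (0.73), Cbs (0.68), Gamt (0.65, adjusted p = 1.8e-08), Aldh1l2 (0.65) and Ggh (0.53). With spots of non-uniform background kept, Cth (0.24, adjusted p = 0.493), Aldh1l2 (0.15, adjusted p = 0.681) and Cbs (0.37, adjusted p = 0.0805) were no longer called.

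Between TO and WT cells in proliferation medium the set gave 6 genes higher and 9 lower, where 34.7% of all genes were called, 19.0% higher and 15.7% lower, and its median was -0.06 against 0.00 over all genes. Only 8 genes (21.1%, against 20.7% of all genes) had groups without overlap. The largest differences were a fall of Tyms (-0.99, adjusted p = 5.62e-05, with TO-p replicate 4 above WT-p replicate 2) and a rise of Mthfs (0.64, adjusted p = 3.18e-06). Odc1 and Gldc fell by 0.54 each. Nnmt was close in TO-p and WT-p (difference -0.01, 95% interval -0.24 to 0.22). With samples of the same description number averaged, 8 genes were called in place of 15, and 19.4% of all genes; with loess alone 2 were higher and 10 lower, where all genes gave 1972 higher and 2909 lower in place of 3083 and 2545.

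OT cells, whose fusion bound no detectable cobalamin, also differed from WT. In differentiation medium 10 of the 38 genes were higher and 14 lower in OT-d, where 51.9% of all genes were called, 26.7% higher and 25.2% lower, and the groups did not overlap in 21 (55.3%, against 39.5% of all genes). The median was -0.06, against -0.01 over all genes. The largest falls were those of Aldh1l2 (-0.95), Cth (-0.75), Phgdh (-0.73, adjusted p = 5.62e-07) and Mthfs (-0.58), Psat1 fell by 0.36 (adjusted p = 0.000404), and Tyms rose by 0.91 (adjusted p = 0.000135). For Phgdh and Psat1, the TO-d level thus lay above that of WT-d and the OT-d level below it; the Mthfd1 levels of OT-d and WT-d differed by -0.14 (95% interval -0.34 to 0.05).

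In proliferation medium, 12 genes were higher and 11 lower in OT-p relative to WT-p, where 44.7% of all genes were called, 20.4% higher and 24.3% lower; the groups did not overlap in 12 (31.6%, against 33.8% of all genes). Nnmt was 4.85-fold lower in OT-p (adjusted p = 2.65e-13), the 1 gene of the set past 2-fold, where 2.20% of all genes passed at that size, and Cth (-0.77), Gamt (-0.74) and Mthfs (-0.65) were lower as well. Amd1 (0.53, adjusted p = 1.64e-05) and Mthfd1 (0.46, adjusted p = 8.97e-05) were higher, and with Amd1 so were 4 of 5 polyamine genes. The largest rise, that of Mat2a, which makes S-adenosylmethionine (0.76, adjusted p = 0.00893), was not called without OT-p replicate 4 (0.46, adjusted p = 0.227) or without WT-p replicate 2 (0.42, adjusted p = 0.261). These counts depend on 1 library: without WT-p replicate 2, 15 genes were called in place of 23, and Odc1 (0.21, adjusted p = 0.143), Srm (0.19, adjusted p = 0.182) and Mtap (0.16, adjusted p = 0.171) were among those lost. With spots of non-uniform background kept, 13 were called. The comparisons of TO and OT with WT share the WT samples, and those of TO with OT and WT share the TO samples.

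**Figure D2:**
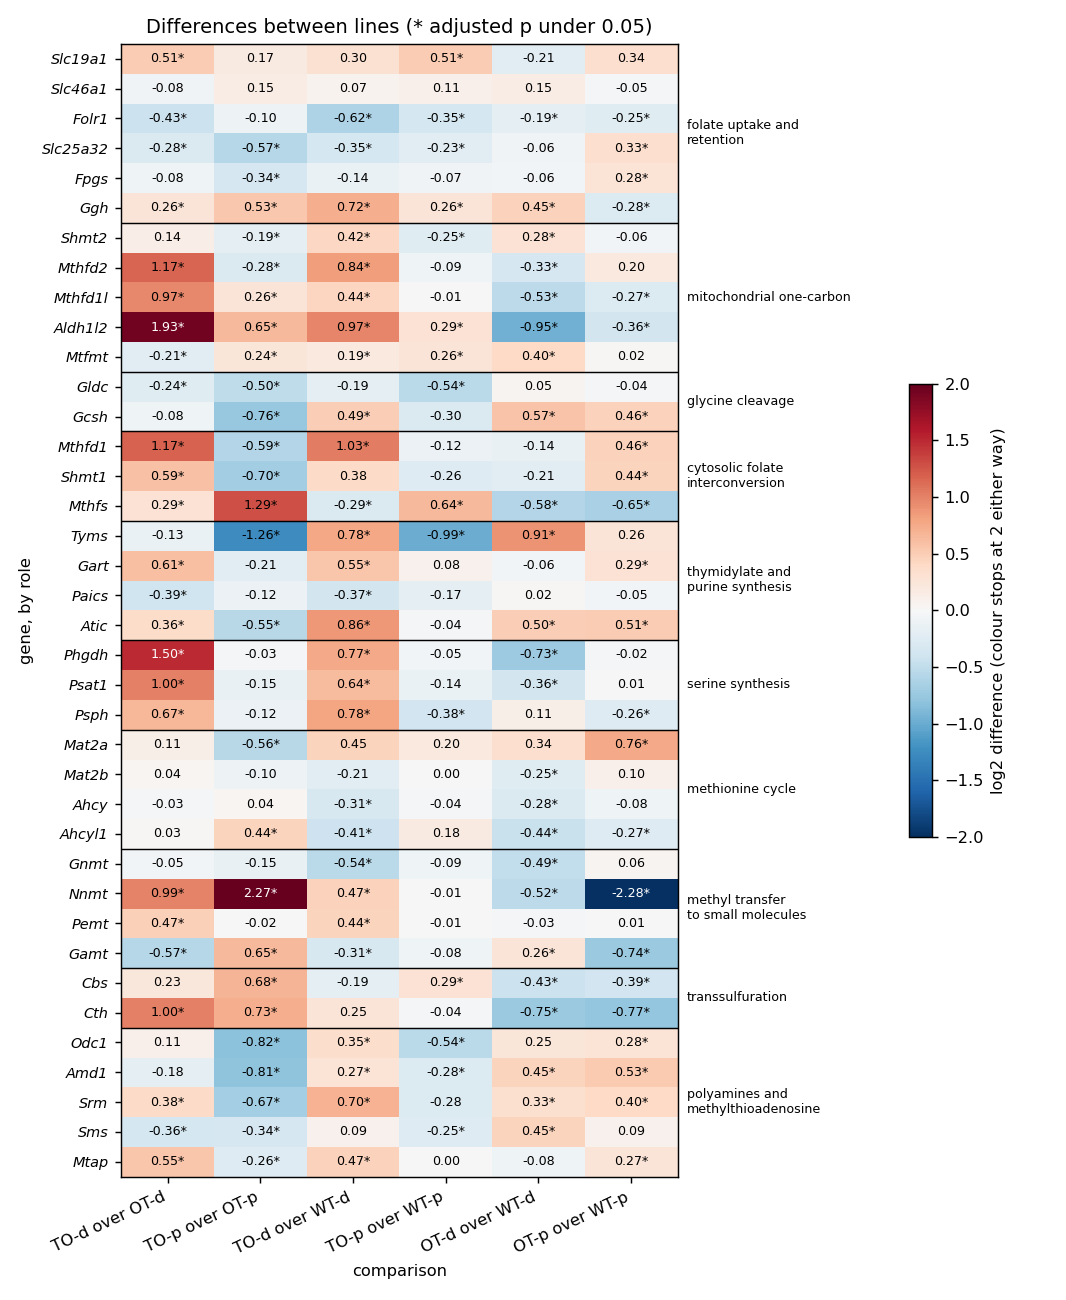
Heat map of the fitted log2 difference between lines for the 38 genes tested (rows, by role) in 6 comparisons (columns, first group over second); red is higher in the first-named line, blue lower, and a star marks an adjusted p under 0.05. Phgdh, Psat1, Psph, Mthfd1, Mthfd2, Mthfd1l and Aldh1l2 are red in TO-d over OT-d and TO-d over WT-d, and the polyamine rows are blue in TO-p over OT-p.

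Most of the set was lower in differentiation medium than in proliferation medium in every line. In TO cells 2 genes were higher and 25 lower (all genes: 52.4% called, 26.1% higher and 26.4% lower), with a median of -0.40. In OT cells 6 were higher and 26 lower (all genes: 67.7% called, 36.7% higher and 31.0% lower), with a median of -0.85, and in WT cells 5 were higher and 28 lower (all genes: 66.5% called, 35.6% higher and 30.9% lower), with a median of -0.93. The groups of the 2 media did not overlap in 25 genes in TO (65.8%, against 46.9% of all genes), 32 in OT (84.2%, against 62.3%) and 29 in WT (76.3%, against 51.2%). Falls of at least 2-fold numbered 11 in TO, 17 in OT and 17 in WT, and there was 1 such rise, that of Nnmt in OT; of all genes 7.11% passed at that size in TO, 17.0% in OT and 15.0% in WT.

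Tyms fell most: it stood 6.03-fold below the proliferation level in TO-d, 13.2-fold in OT-d and 20.6-fold in WT-d. Its differentiation samples were 9.62, 9.73, 10.08 and 9.53 in TO-d, 10.08, 9.95, 9.83 and 9.98 in OT-d, and 8.82, 8.95, 9.16 and 9.05 in WT-d, all far below the proliferation values above. Cth fell by 2.25 in TO, 2.52 in OT and 2.54 in WT, and the difference between these responses did not pass the test (0.27, 95% interval -0.01 to 0.55, adjusted p = 0.113 for TO against OT; 0.29, 95% interval 0.01 to 0.58, adjusted p = 0.0978 for TO against WT). Its proliferation samples were 12.20, 12.23, 12.36 and 12.31 in TO-p, 11.41, 11.45, 11.55 and 11.48 in OT-p, and 12.27, 12.19, 12.31 and 12.34 in WT-p. Nnmt and Mthfs were among the genes that went the other way in OT, where they rose by 1.27 and 0.69. Mthfs also rose in WT (0.62). Gnmt was higher in differentiation medium in every line, with means of 7.71 in TO-p and 8.15 in TO-d, 7.83 in OT-p and 8.17 in OT-d. In WT its means were 7.79 in WT-p and 8.74 in WT-d. Mat2a averaged 14.75 in TO-p and 15.32 in TO-d, and Ahcyl1 10.80 in WT-p and 11.41 in WT-d. In differentiation medium Mthfs had 10.98, 10.95, 10.67 and 10.81 in TO-d, 10.60, 10.65, 10.51 and 10.51 in OT-d, and 11.25, 11.20, 11.17 and 11.06 in WT-d, so that WT was then the highest line. Nnmt had 9.21, 9.46, 9.42 and 8.83 in WT-d.

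Phgdh and Psat1 were not called between any pair of lines in proliferation medium. Psph was called lower than WT-p in both TO-p and OT-p, with means of 13.93 in TO-p, 13.97 in OT-p and 14.26 in WT-p. Phgdh had 15.59, 15.49, 15.92 and 15.79 in TO-p, 15.54, 15.71, 15.76 and 15.71 in OT-p, and 15.74, 15.55, 15.78 and 15.82 in WT-p, with adjusted p from 0.701 to 0.851 between lines. It fell by 0.59 in TO-d, 2.12 in OT-d and 1.41 in WT-d. Psat1 had 13.79, 13.72, 13.78 and 13.84 in TO-p, 13.72, 13.83, 13.92 and 13.96 in OT-p, and 13.90, 13.78, 13.96 and 13.94 in WT-p, and fell by 1.17 in TO-d, 2.33 in OT-d and 1.95 in WT-d. Mthfd2 had 12.53, 12.37, 12.00 and 12.33 in TO-p, 12.50, 12.66, 12.50 and 12.60 in OT-p, and 12.60, 12.21, 12.58 and 12.17 in WT-p, and fell by 0.74, 2.19 and 1.67 in TO-d, OT-d and WT-d. Mthfd1 had 12.09, 12.02, 12.08 and 12.40 in TO-p, 12.76, 12.71, 12.69 and 12.80 in OT-p, and 12.39, 11.94, 12.48 and 12.16 in WT-p, and Aldh1l2 had 10.97, 10.88, 11.14 and 10.89 in TO-p, 10.21, 10.37, 10.33 and 10.38 in OT-p, and 10.42, 10.79, 10.64 and 10.84 in WT-p. In Phgdh, Psat1, Mthfd2, Mthfd1 and Aldh1l2, TO lost the least on moving to differentiation medium and OT the most.

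The response to the medium was tested between lines as an interaction, the d over p difference of one line less that of the other. Against OT, TO had 18 genes with a higher response and 7 with a lower one, where 40.4% of all genes were called, 16.8% higher and 23.6% lower; against WT, 22 higher and 5 lower, where 36.4% were called, 17.1% higher and 19.3% lower. The medians were 0.33 and 0.45. Responses at least 2-fold apart between TO and OT were those of Mthfd1 (1.76, adjusted p = 3.3e-09), Phgdh (1.53, adjusted p = 1.31e-08), Mthfd2 (1.45), Shmt1 (1.29), Aldh1l2 (1.27), Psat1 (1.16), Tyms (1.13) and Srm (1.05) on the higher side, and of Nnmt (-1.28) and Gamt (-1.22) on the lower, where 6.17% of all genes passed at that size. Gamt fell by 1.21 in TO-d, while its difference in OT-d was 0.01 and did not pass the test. Between TO and WT they were Tyms (1.77, adjusted p = 2.21e-05), Psph (1.16) and Mthfd1 (1.15), where 3.81% of all genes passed. All 5 polyamine genes had a higher response in TO than in WT, and 4 of 5 than in OT; that of Sms against WT was the least certain (0.34, and not called in 16 of the 24 fits without 1 sample).

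Between OT and WT, 7 genes had a higher and 12 a lower response, where 35.1% of all genes were called, 20.8% higher and 14.3% lower. Nnmt (1.76, adjusted p = 3.45e-08) alone was past 2-fold, where 3.47% of all genes were. With spots of non-uniform background kept, 10 genes were called, 7 higher and 3 lower.

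The remaining genes of the set are given here. Of the folate carriers, Slc46a1, the proton-coupled one, was not called in any of the 6 comparisons of lines, and Slc19a1, the reduced folate carrier, was higher in TO-d over OT-d by 0.51, a call lost without TO-d replicate 1 (0.49, adjusted p = 0.062) or TO-d replicate 4 (0.46, adjusted p = 0.088). Fpgs, which adds the glutamate tail that keeps folate in the cell, fell by 0.34 in TO-p over OT-p. Ahcy, which clears S-adenosylhomocysteine, fell with the medium by 1.19 in TO-d, 1.12 in OT-d and 0.91 in WT-d, and differed by -0.31 in TO-d over WT-d (adjusted p = 0.00374). Pemt, which methylates phosphatidylethanolamine, rose by 0.47 in TO-d over OT-d and by 0.44 in TO-d over WT-d. Gart, a purine enzyme, rose by 0.61 in TO-d over OT-d (adjusted p = 5.18e-05). In OT-d over WT-d the other tested probe of Gart was called, in the direction opposite to the brightest one. Of the methionine cycle, Mat2b, the regulatory subunit beside Mat2a, differed between lines in OT-d over WT-d alone (-0.25). That call was lost without OT-d replicate 3 (-0.22, adjusted p = 0.127) and also without each of 4 other samples. Ahcyl1 rose by 0.44 in TO-p over OT-p, but its probes disagree. Of the 3 tested, 1 was called opposite to the brightest there, in OT-p over WT-p and in OT-d over WT-d.

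**Figure D3:**
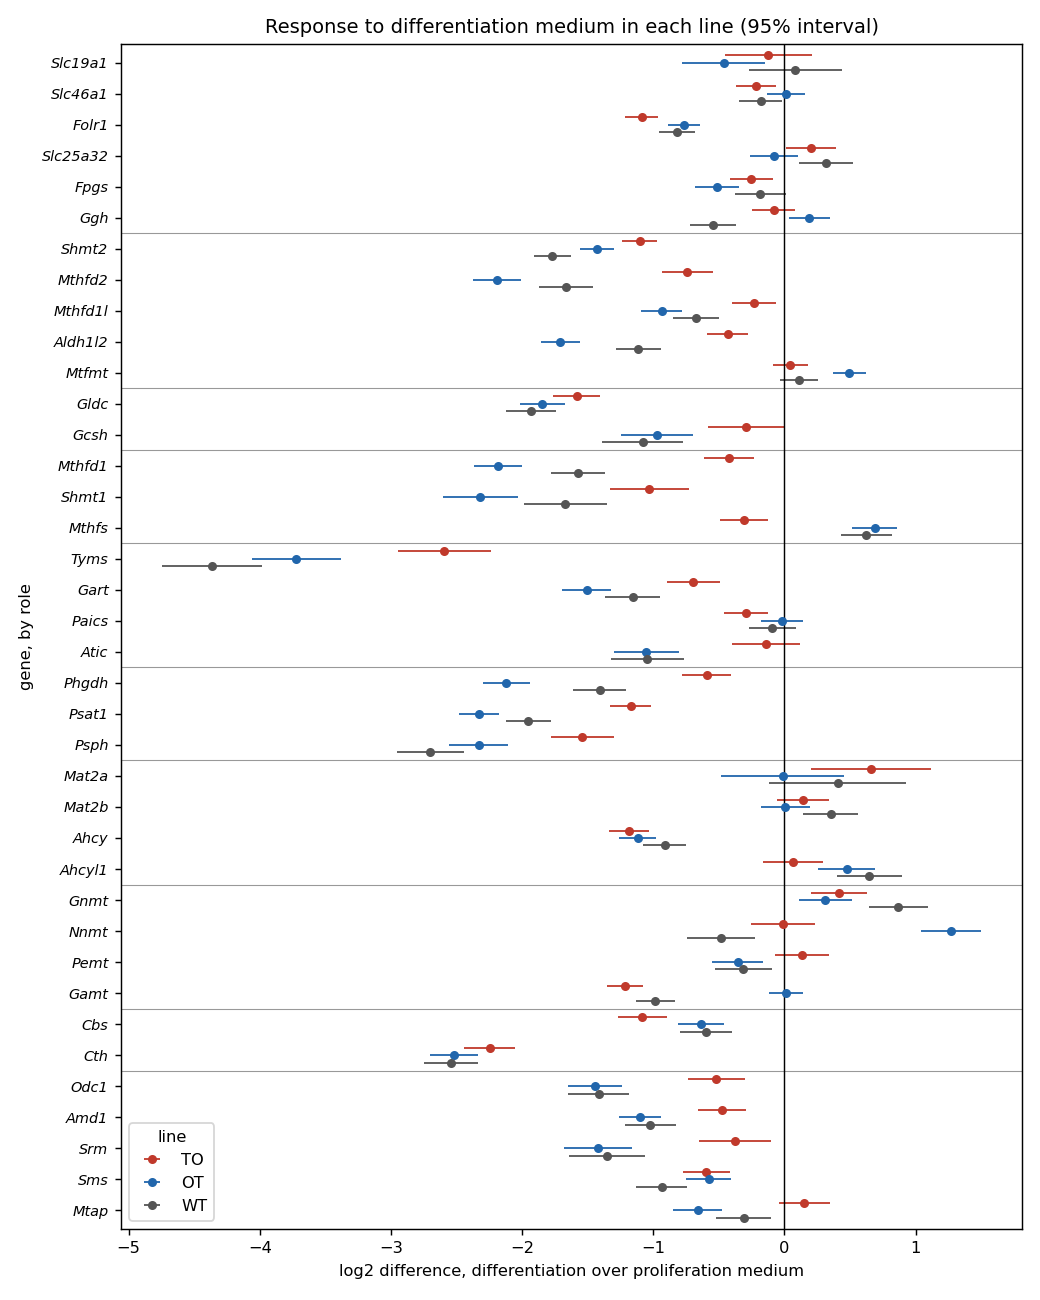
Fitted log2 difference of differentiation over proliferation medium (x axis) for the 38 genes tested, by role, with a point and 95% interval for TO, OT and WT. Most points lie left of 0, and for serine synthesis and Mthfd1, Mthfd2 and Aldh1l2 the TO point lies nearest to 0.

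Genes of neighbouring pathways, from lists chosen by function, are given beside these; the shares over all genes were 18.7% up and 21.3% down for TO-d over OT-d, 22.6% and 23.8% for TO-d over WT-d, and 30.2% and 26.0% for TO-p over OT-p. Of 14 other folate and methionine genes tested, 8 rose and 1 fell in TO-d relative to OT-d, with Slc7a5, a large neutral amino acid carrier (1.09), Mtr, the cobalamin-dependent methionine synthase (0.62), and Sfxn1, the mitochondrial serine carrier (0.42), the largest. Of 5 serine and glycine transport genes 3 rose and 1 fell in TO-d relative to OT-d, led by Slc6a9, a glycine transporter (1.04), and all 5 rose relative to WT-d. Of 7 glutathione and cysteine genes 6 rose and 0 fell in TO-d relative to OT-d: among them Chac1, which degrades glutathione (1.82), and Gss, glutathione synthetase (0.71). Slc7a11, the cystine carrier, is counted among these 6. It was well above background in only 16 of 24 samples, so no difference is given for it. In proliferation medium 7 of 11 other purine and thymidylate genes fell and 0 rose in TO-p relative to OT-p, among them Ppat, the first step of purine synthesis (-1.37), and Rrm2 and Rrm1, subunits of ribonucleotide reductase (-1.14 and -0.72). The 16 other polyamine genes went both ways there, 6 higher and 4 lower; Sat1, which acetylates spermidine and spermine for export, was higher in TO-p (1.48).

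Further marker lists also differed between the lines, and the same shares of all genes apply, with 26.7% higher and 25.2% lower in OT-d over WT-d. Of 9 genes of the Atf4 response, the transcriptional arm of amino acid and other stress, 8 rose and 0 fell in TO-d relative to OT-d (median 0.94), with Trib3 (2.46), Cebpb (1.36) and Ddit3 (1.14) the largest. The list gave 5 higher and 0 lower in TO-d over WT-d (median 0.34), 0 higher and 6 lower in OT-d over WT-d (median -0.47), and 4 higher and 1 lower in TO-p over OT-p. Of 15 markers of cycling cells, 1 rose and 10 fell in TO-d relative to OT-d (median -1.06). At least 2-fold were 7 of these falls, where 3.18% of all genes passed at that size. Relative to WT-d, 3 rose and 1 fell in TO-d (median -0.02), and 12 rose and 1 fell in OT-d (median 1.02). In TO-p relative to OT-p, 0 of these markers rose and 9 fell (median -0.74). Their summed level, on the log2 scale, ranged from 15.13 to 15.28 in TO-d, 15.11 to 15.29 in OT-d, 14.69 to 14.84 in WT-d, 17.16 to 17.81 in TO-p, 18.07 to 18.13 in OT-p and 17.58 to 18.02 in WT-p. All 15 fell in differentiation medium in every line, with medians of -3.84 in TO, -3.46 in OT and -4.46 in WT. TO-p had the lowest range of sums in proliferation medium, overlapping that of WT-p, and the lowest mean Tyms and Odc1. In TO-d over OT-d the 3 serine synthesis genes rose and 10 of the 15 cycling markers fell. The summed levels of TO-d and OT-d overlapped, but bright genes weigh most in a sum of linear levels. Mcm6, the brightest of the 15 on average, had a mean of 14.36 in TO-d and 13.92 in OT-d. For Ccna2 the means were 7.70 in TO-d and 9.20 in OT-d. Of the 13 sympathoadrenal markers, 1 rose and 9 fell in TO-d relative to OT-d (median -0.45), 4 rose and 2 fell relative to WT-d (0.08), 8 rose and 0 fell in OT-d relative to WT-d (0.55), and 4 rose and 4 fell in TO-p relative to OT-p (0.03). Of 3 fibroblast markers tested, 2 rose and 1 fell in TO-d relative to OT-d, and 1 rose and 2 fell relative to WT-d. In TO-p relative to OT-p, 2 rose and 0 fell. Col1a1, a fibroblast collagen, averaged 8.38 in TO-d, 7.35 in OT-d and 8.66 in WT-d. It rose by 1.08 in TO-d over OT-d (adjusted p = 4.74e-10) and by 1.63 in TO-p over OT-p. Dcn went the other way, with 6.17 in TO-d and 6.32 in OT-d. The summed level of the 6 fibroblast markers ranged from 9.45 to 9.50 in TO-d, 9.00 to 9.10 in OT-d, 9.62 to 9.71 in WT-d, 9.88 to 10.12 in TO-p, 9.19 to 9.28 in OT-p and 9.30 to 9.39 in WT-p, and that of the blood and endothelial markers from 8.79 to 8.94 over all groups. The part of these lists in the results of the set was not tested.

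**Figure D4:**
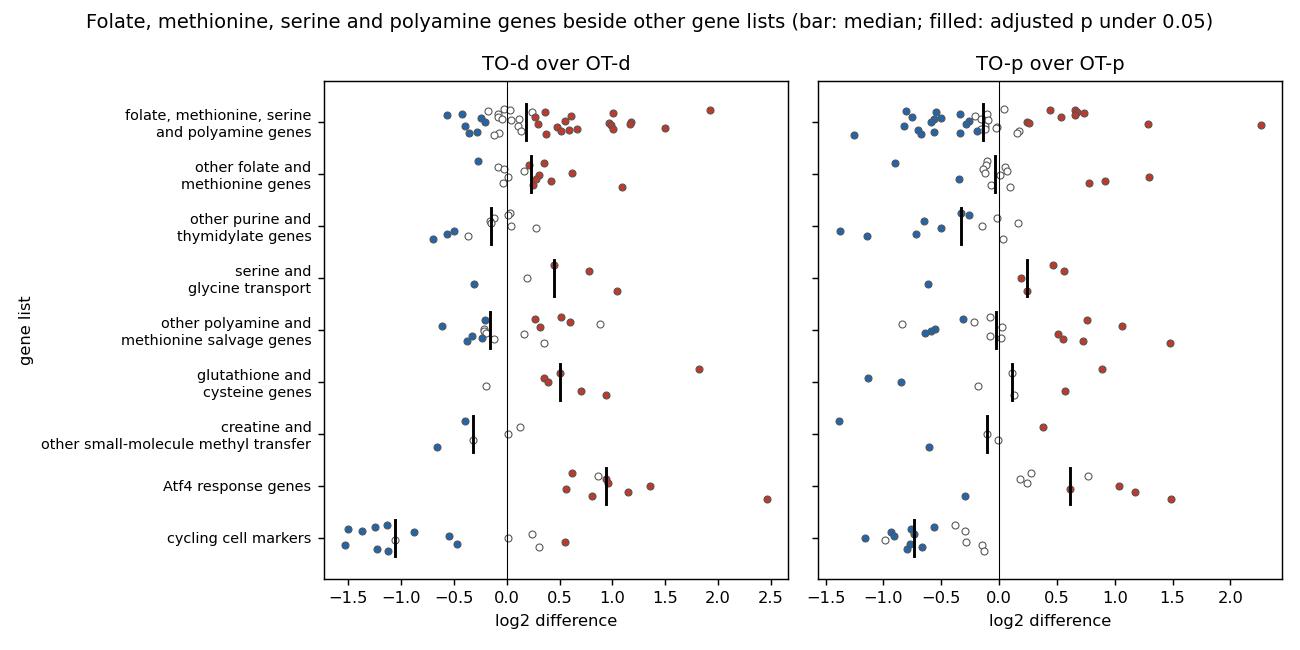
Fitted log2 differences (x axis) for the genes tested in the set and in 8 other lists (rows), for TO-d over OT-d (left) and TO-p over OT-p (right), with a point per gene, filled where the adjusted p was under 0.05, and a bar at each list's median. The Atf4 response list has its median at 0.94 in TO-d over OT-d, and the cycling markers lie mostly below 0 in both panels.

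The 38 genes lie on 17 chromosomes. Genes within 5 Mb of Phgdh (119 tested) had a median difference of -0.08 in TO-d over OT-d, those near Aldh1l2 (178) -0.13, near Mthfd2 (93) -0.06 and near Psat1 (46) -0.04. Around Mthfd1 (70 genes) it was 0.18, with 25 higher and 5 lower, against the gene's own 1.17. Near Nnmt in TO-p over OT-p (109 genes) it was 0.02. Near Sms in that comparison (36 genes) it was -0.30, with 4 higher and 19 lower, against the gene's own -0.34. For the other polyamine genes it was 0.09 near Odc1, 0.03 near Amd1, 0.13 near Srm and -0.02 near Mtap. Near Mtfmt (84 genes) it was 0.17, against the gene's own 0.24, and near Cbs (246 genes) 0.16, against 0.68. Of all genes, 30.2% were higher and 26.0% lower in that comparison. Within each slide that held both groups, called differences between lines kept their sign with a few exceptions. These were Shmt2 and Mthfd2 in TO-p over OT-p on slide 1, and Mtap in OT-p over WT-p on slide 2. Mtfmt and Psph also changed sign in TO-d over WT-d on slide 3, which held 1 sample of each group.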

How the data were processed

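The deposited scanner tables hold spot and local background intensity for both dyes, with the marks of the program, Agilent's Feature Extraction (version 10.5.1.1), per the file headers. A deposited table of the whole series gives a linear intensity for each spot in each sample; how it was made is not given in the sources used here.

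The software was limma 3.58.1 and statmod 1.5.0 under R 4.3.3. Marked spot values (0.321%) were left out. The mean signals then went through normexp (offset 50, local background median), removal of 1639 control spots, loess, Aquantile and log2. Of 41174 probes, the brightest stood for each of 27597 gene names. A gene was tested if 1 or more groups had all 4 samples well above background, which 16241 genes had.

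The fit had a mean for each of 6 groups, a dye term and an array correlation of 0.464, with 17 residual and 5.30 prior degrees of freedom. The planned separate-channel fit of limma takes no missing value, so array was the block in lmFit; on the 15740 complete genes both gave the same values within 1.78e-14. Calls are those of limma's two-sided moderated statistic with a Benjamini-Hochberg adjustment over all genes tested, at a threshold of 0.05; intervals are 95%. Fitted differences include the dye term and can differ from differences of means. Tested on simulated data for TO-p over OT-p (15740 genes), the fit called 79 of 100 genes changed by 0.5 on the log2 scale. It called 99 of 100 changed by 1, and 12 unchanged ones. Only these few genes were changed there, while 56.2% of all genes were called in the data. The adjustment depends on that share, so these rates do not carry over to the data.

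The genes and lists were chosen with earlier results of these data known. Values by sample are given for genes called with at least 2-fold between lines, and for a few others by role; other lists give at most 3 genes a comparison. Alternatives were the program's processed signals, the table of the whole series, loess alone, quantile normalization, single probes, no filter on dim probes, no dye term, slide, a replicate block, same-numbered samples averaged, each sample left out, and, chosen after seeing the data, spots of non-uniform background kept and no array correlation. Probe positions are those of the files (mm8); promoters are RefSeq's (GRCm38.p6).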

Additional observations from a re-analysis of the deposited data

Results flagged for a closer look

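In 7 of 222 groups of 4 samples, 1 sample lay further from the other 3 than Dixon's 95% limit allows; chance gives about 5% of groups. Slc19a1, the reduced folate carrier, was low in TO-p replicate 1 (13.53, with the others at 14.38 to 14.48), and Pemt, which makes phosphatidylcholine by methylation, in TO-p replicate 3 (9.14, others 9.48 to 9.55). Atic was low in OT-d replicate 1 (11.20, others 11.62 to 11.68). In WT-d, Sms was low in replicate 1 (12.20, others 12.69 to 12.77), and replicate 4 was low for Srm (13.37, others 13.51 to 13.53) and high for Ahcyl1, a regulator related to adenosylhomocysteine hydrolase (11.65, others 11.29 to 11.35). Paics was low in WT-p replicate 4 (12.75, others 12.99 to 13.01).

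The response to the medium differed between lines, tested as an interaction, for 25 genes of the set between TO and OT, 27 between TO and WT and 19 between OT and WT. Those at least 2-fold apart between TO and OT were Mthfd1 (1.76), Phgdh (1.53), Mthfd2 (1.45), Shmt1 (1.29), Aldh1l2 (1.27), Psat1 (1.16), Tyms (1.13), Srm (1.05), Nnmt (-1.28) and Gamt (-1.22). Between TO and WT they were Tyms (1.77), Psph (1.16) and Mthfd1 (1.15), and between OT and WT Nnmt (1.76).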

How the results depend on the processing

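Of 304 called differences of single genes, 241 stayed called in the same direction with each of the 24 samples left out in turn, and 198 under all alternatives run; 3 reversed. With loess alone the response of Folr1 in TO less that in WT was 0.028 (adjusted p = 0.915) in place of -0.27. With spots of non-uniform background kept, Aldh1l2 was -0.14 (adjusted p = 0.763) in TO-p over WT-p in place of 0.29, and 0.017 (adjusted p = 0.971) in TO-d over TO-p in place of -0.43; that setting also gave 13 genes called in OT-p over WT-p in place of 23, and 10 in the responses of OT against WT in place of 19. With same-numbered samples averaged, which leaves fewer samples, 8 genes were called in TO-p over WT-p in place of 15. That setting gave 23 in TO-d over OT-d in place of 25, and 28 in TO-d over WT-d, as without it. It gave 22 in OT-d over WT-d in place of 24, 23 in TO-p over OT-p in place of 26 and 22 in OT-p over WT-p in place of 23. By correlation of deviations, the pair sharing a description number ranked 1 of 6 pairs in OT-p and OT-d, 2 in TO-p, WT-p and TO-d, and 5 in WT-d. The causes of the other changes were not tested. Leaving out each sample, the genes called ranged from 18 to 26 in TO-d over OT-d, 23 to 30 in TO-d over WT-d, 21 to 25 in OT-d over WT-d, 22 to 27 in TO-p over OT-p, 11 to 19 in TO-p over WT-p and 15 to 24 in OT-p over WT-p. For the medium they ranged from 24 to 28 in TO, 31 to 32 in OT and 31 to 34 in WT, and for the responses from 23 to 26 for TO against OT, 22 to 29 for TO against WT and 14 to 20 for OT against WT. Loess alone moved the median of all genes by over 0.1, to 0.13 in place of -0.04 for the responses of TO against WT, to 0.10 in place of -0.03 in TO-d over WT-d and to -0.07 in place of 0.06 in WT-d over WT-p, and the processed signals moved the last of these to 0.19. Beside the splits in the text it gave 8 higher and 11 lower in OT-p over WT-p, 12 and 10 in OT-d over WT-d, and, for the responses, 21 and 4 for TO against OT, 23 and 1 for TO against WT and 9 and 4 for OT against WT. With spots of non-uniform background kept, TO-p over WT-p gave 3 higher and 9 lower, and with no array correlation the responses of OT against WT gave 8 and 7. The replicate numbers did not pair the samples: deviations of same-numbered samples correlated at -0.31 to 0.30 over the comparisons of lines. The replicate block gave 25 genes called in TO-d over OT-d and 26 in TO-p over OT-p, as without it, and 29 in TO-d over WT-d in place of 28. With slide as a covariate, 22 genes were called in OT-d over WT-d in place of 24. The same setting gave 23 in TO-d over OT-d in place of 25 and 25 in TO-d over WT-d in place of 28.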
